A study of Mus musculus with 10 samples.

Results

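The mRNAs described here encode the cap-binding factor eIF4E, the eIF4A helicases, the eIF4G-related protein of Eif4g2 and the 4E-binding proteins, measured in cultured mouse embryonic fibroblasts. All probe sets were taken whose platform annotation gives exactly 1 gene symbol, equal to Eif4a1, Eif4a2, Eif4e, Eif4g2, Eif4ebp1 or Eif4ebp2. The 6 genes, of 8251 named in this way, have 9 such probe sets of 12488 on the array, with 3 for Eif4ebp2, 2 for Eif4e and 1 for each other gene. In these libraries the Eif4ebp2 probe set 101072_at was lower in polyribosome than in cytoplasmic RNA, by a log2 difference of -2.28 after quantile normalization and -2.61 to -1.02 under the other scalings and settings tried. The other tested probe set of this gene, 94353_at, was at -0.21 and did not pass. Eif4e and Eif4g2 were higher in polyribosome RNA, by 0.95 and 1.17, and both calls were lost without the serum-treated cytoplasmic array. The Eif4e call was also lost under 1 scaling, and 1 of its 2 cytoplasmic arrays was below background. In undertranslated RNA 101072_at was likewise lower, and Eif4e higher, than in cytoplasmic RNA, at -1.16 and 1.70 after quantile normalization. The Eif4e difference from cytoplasmic RNA turned to -1.87 under scaling by hybridization controls. How far the polyribosome difference of Eif4e or 101072_at reflects ribosome loading was not tested. After 2 h of serum no tested probe set of these genes passed, either over polyribosome and cytoplasmic RNA or in undertranslated RNA, where 0.891% and 1.07% of all probe sets passed, so that 0 of 7 is near the background share.

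The cells were primary fibroblasts from E14.5 embryos on a C57/BLACK6 background, all carrying ATF1 +/-, so that the starved controls share this genotype and no wild-type culture was analysed here. Every culture was starved for 48 h in 1% serum. It then spent 2 h in medium with 10% serum (serum-treated) or with 1% serum (starved). The arrays read 3 pools of RNA, the cytoplasmic, the undertranslated (the sucrose gradient fractions holding no ribosome, a subunit or a single ribosome) and the polyribosome-associated (the fractions with more ribosomes on each mRNA). This makes 6 groups on 10 arrays, with 1 array in each cytoplasmic group and 2 in each gradient group. The gradient cultures, but not the cytoplasmic ones, received cycloheximide for 30 min, which holds ribosomes on their mRNA, so that a difference between a gradient pool and the cytoplasm cannot be told apart from an effect of this drug. Replicate 2 of each gradient group was also given 200 uM 4-thiouridine and 3H-cytidine. Gradient fractions were pooled over cultures before hybridization, and same-numbered gradient arrays may share cultures, so the p-values measure the spread between pooled samples, part of which may be technical.

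Translation of most mRNAs starts when eIF4F binds the 5′ cap. In this complex eIF4E holds the cap, eIF4G is the scaffold that recruits the small ribosomal subunit, and the eIF4A helicase opens structure in the 5′ leader. The 4E-binding proteins compete with eIF4G for eIF4E; when growth factors activate mTOR complex 1, it phosphorylates them and they release eIF4E, which is how serum raises cap-dependent translation within minutes. The arrays measured the mRNAs of these proteins, and neither the proteins nor their phosphorylation.

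Messages of ribosomal proteins and elongation factors whose translation follows mTOR often begin with a 5′ terminal oligopyrimidine tract, a C at the cap followed by a run of C or T. The annotated start sites of the members are printed to show whether they have such a tract. RefSeq start sites (build GRCm38.p6) were matched for 4 of the 6 genes, Eif4a1, Eif4a2, Eif4e and Eif4ebp2, with 5 starts in all. Each line runs 5′ to 3′ on the gene's strand, with 10 bases before the start in lower case and the first 20 transcribed bases in capitals.
Eif4a1 (chr11:69672404-69672433, minus strand): gtaacgtcacGTCGAGTTGCAGAGCGCCGG
Eif4a2 (chr16:23107458-23107487, plus strand): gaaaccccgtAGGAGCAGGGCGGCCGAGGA
Eif4e, first start (chr3:138526181-138526210, plus strand): aaacagcagcGGAGGCGGAGGGAGCTGGTC
Eif4e, second start (chr3:138527258-138527287, plus strand): cccccttcagGAGCGGTTGTGCGATCAGAT
Eif4ebp2 (chr10:61452650-61452679, minus strand): cgcagcgggaCGACCGGGCGAGAGCAGGCG
None of the 5 starts has a C followed by at least 4 C or T. Of all 32851 annotated starts 2.51% have it, and of 73 starts of ribosomal protein genes 19.2%. Eif4ebp2 is the only one of the 5 to begin with C, and a G follows it. Most annotated starts of ribosomal protein genes lacked the tract too. Its absence at an annotated start therefore cannot show that a message has no tract.

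Eif4e is known as a target of Myc through E-boxes, with the letters CACGTG, and the 250 bases before its second start hold this motif at 228 and at 64 bases upstream. They are printed with the motifs in capitals, since Myc is a classic serum-induced gene.
Eif4e, second start (chr3:138527018-138527267, plus strand): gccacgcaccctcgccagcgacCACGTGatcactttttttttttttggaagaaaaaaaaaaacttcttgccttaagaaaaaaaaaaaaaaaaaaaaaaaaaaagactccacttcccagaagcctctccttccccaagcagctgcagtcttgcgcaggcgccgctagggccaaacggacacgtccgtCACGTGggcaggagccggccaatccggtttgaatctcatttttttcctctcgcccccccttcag
The motif reads the same on both strands. Of all annotated starts 6.02% have at least 1 copy in the same 250 bases and 0.429% have 2 or more. Among the members Eif4a1 has 1 copy, 189 bases before its start, and the first start of Eif4e and the starts of Eif4a2 and Eif4ebp2 have no match in this window.

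The values are the authors' deposited intensities, 1 per probe set and array on a linear scale. An array's background was set by its brightest unspiked control, out of 19 for bacterial or yeast sequences. Median intensity was 5.7 to 8.8 on the undertranslated arrays, 19.1 to 19.2 on the cytoplasmic and 45.3 to 54.25 on the polyribosome arrays. The 3′ to 5′ intensity ratio of the beta-actin control probe sets, a sign of truncated RNA, was 23.6 to 137 on the undertranslated arrays against 11.5 to 21.1 on the polyribosome and 11.9 to 16.65 on the cytoplasmic arrays. That of Gapdh ran the other way, at 3.7 to 6.81, 6.11 to 20.9 and 28.4 to 47.0. Their part in the differences between pools was not tested. Fibroblast markers were above background for 10 or 11 of 11 genes measured on every array. Values were compared as scaled log2 levels, that is log2(intensity + 1.5) after quantile normalization of the 10 arrays, and tested with limma at a Benjamini-Hochberg adjusted p of 0.05 over the 9316 probe sets that passed a filter on low level. Of the 9 member probe sets 7 passed it, and 5 were above background on all 10 arrays. The second Eif4e probe set, 162222_r_at, and the third of Eif4ebp2, 96729_at, were above background on 0 arrays. Their highest intensities were 7.6 and 2.8, so they were not tested, and each level below is that of a named probe set and is not compared with another's. In bulk RNA, fewer cells of a type and less RNA per cell cannot be told apart.

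**Figure D1:**
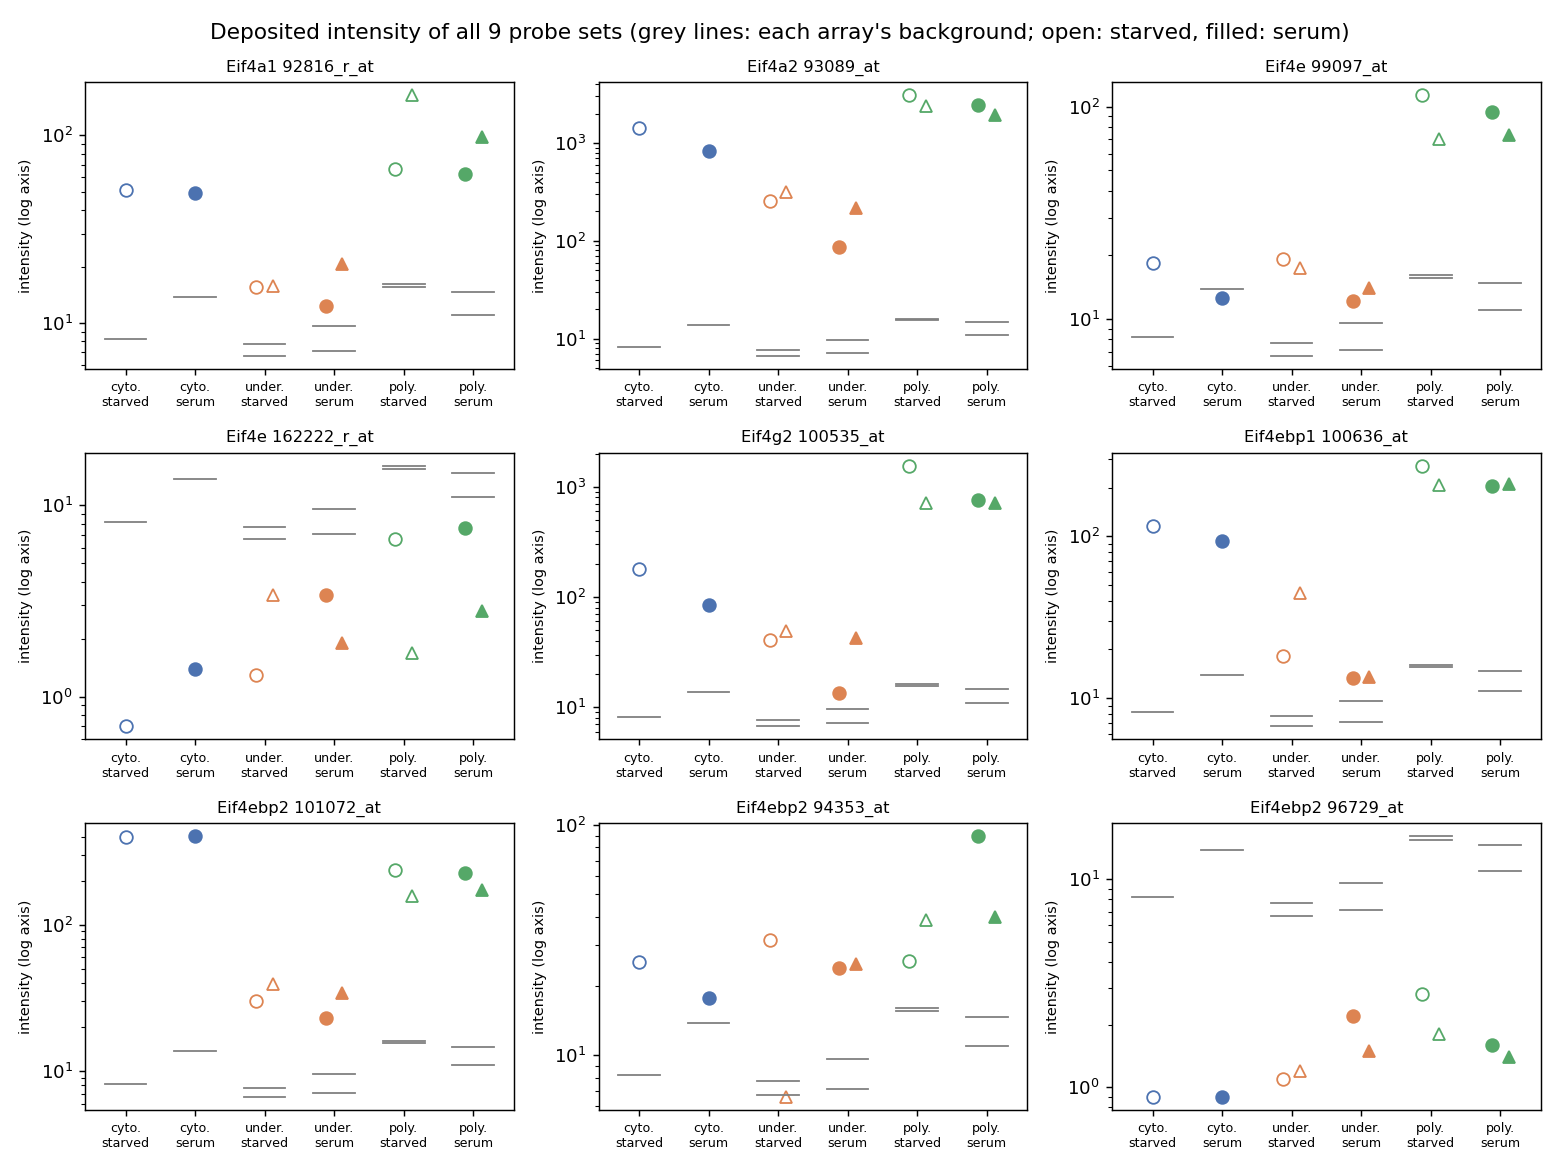
Deposited intensity (vertical log axes) of the 9 probe sets in the 6 groups, 1 marker per array; circles are replicate 1, triangles replicate 2, open markers starved, filled markers serum-treated, and grey lines the background of each array of the group. Eif4e 162222_r_at and Eif4ebp2 96729_at lie below the lines on all 10 arrays, and the undertranslated values of Eif4a1, Eif4a2, Eif4e, Eif4g2, Eif4ebp1 and Eif4ebp2 101072_at lie below the polyribosome ones on this unscaled axis.

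Eif4e encodes the cap-binding protein itself. Its probe set 99097_at gave intensities of 18.3 in starved and 12.5 in serum-treated cytoplasmic RNA, the second of which was below that array's background of 13.8. In undertranslated RNA it read 19.2 and 17.4 in the starved replicates and 12.1 and 14 in the serum-treated ones, at 1.46 to 2.87 times background. In polyribosome RNA it read 112.9 and 70.5 starved and 94.7 and 73.4 after serum. On the scaled log2 axis the 2 cytoplasmic arrays were lowest, at 4.33 and 3.86, the 4 polyribosome arrays lay between 4.87 and 5.19, and the 4 undertranslated arrays were highest, between 5.49 and 6.06, with no overlap between the 3 pools. Within a pool the starved and serum-treated means differed by less than their SDs in both gradient pools (5.83 ± 0.32 and 5.75 ± 0.37 undertranslated, 5.03 ± 0.22 and 5.06 ± 0.17 polyribosome, SD, n = 2 each).

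Eif4a2 encodes one of the eIF4A helicases, and its paralog Eif4a1 the other; the 2 are close relatives, and cross-hybridization between them was not tested. The Eif4a2 probe set 93089_at read 1414.5 in starved and 822.5 in serum-treated cytoplasmic RNA. It read 257.4 and 314.8 in starved and 87.1 and 215.4 in serum-treated undertranslated RNA, and 3072.4 and 2376.7 in starved and 2436.2 and 1943.4 in serum-treated polyribosome RNA. The scaled levels ran from 10.18 in starved cytoplasm through 9.69 ± 0.08 and 9.69 ± 0.07 in starved and serum-treated undertranslated RNA (SD, n = 2 each) and 9.47 ± 0.05 in starved polyribosomes to 9.38 in serum-treated cytoplasm and 9.14 ± 0.14 in serum-treated polyribosomes. The starved array was the higher one in the cytoplasm and both starved arrays were above both serum-treated ones in polyribosomes, while the 2 undertranslated groups overlapped.

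Eif4a1 was less even between replicates. Its probe set 92816_r_at read 50.9 in starved and 49.1 in serum-treated cytoplasm, 15.6 and 15.8 in starved and 12.3 and 20.6 in serum-treated undertranslated RNA, and 66.0 and 163.5 in starved and 62.4 and 97.7 in serum-treated polyribosome RNA. Replicate 2, the one with 4-thiouridine, was the higher of the pair in both polyribosome groups. The scaled level was highest in serum-treated undertranslated RNA, at 6.15 ± 0.15 (SD, n = 2). The readings behind it were 1.73 and 2.15 times background, and before scaling the undertranslated arrays were the dimmest for this probe set. The other 5 groups lay between 4.99 and 5.54, with an SD of 0.87 in starved and 0.39 in serum-treated polyribosomes, so that their order is within the spread.

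Eif4g2 encodes a relative of eIF4G (also named DAP5) that lacks the eIF4E-binding region and works in cap-independent initiation. Its probe set 100535_at read 177.4 in starved and 85.2 in serum-treated cytoplasm. It read 40.5 and 49.5 in starved and 13.3 and 42.2 in serum-treated undertranslated RNA, and 1546.0 and 717.1 in starved and 761.3 and 711.5 in serum-treated polyribosome RNA. All 4 polyribosome arrays, at scaled levels of 7.63 to 8.31, were above all other arrays, which lay between 6.22 and 7.57. The 2 serum-treated undertranslated arrays, at 6.22 and 7.57, span the whole range of that pool.

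Eif4ebp1 encodes the 4E-binding protein 4E-BP1. Its probe set 100636_at read 116.5 and 93.2 in starved and serum-treated cytoplasm, and 272.8 and 208.7 in starved and 205.2 and 210.8 in serum-treated polyribosome RNA. In undertranslated RNA it read 18.3 and 44.6 starved and 13.4 and 13.5 after serum. The polyribosome levels were close together, at 6.07 to 6.17 on the scaled axis, and the undertranslated ones were spread from 5.40 to 7.16, a range that holds every other array.

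Eif4ebp2 encodes 4E-BP2. Its probe set 101072_at read 395.5 in starved and 401.4 in serum-treated cytoplasm, 30.0 and 39.7 in starved and 23.0 and 34.1 in serum-treated undertranslated RNA, and 235.1 and 158.1 in starved and 225.8 and 173.7 in serum-treated polyribosome RNA. It was the 1 tested member probe set that was brighter on both cytoplasmic arrays than on every polyribosome array before any scaling. The scaled levels formed 3 ranges without overlap: 8.16 and 8.36 in the cytoplasm, 6.83 to 7.45 in undertranslated RNA and 5.81 to 6.18 in polyribosome RNA. Its probe set 94353_at was dimmer and uneven, with intensities of 25.5 and 17.7 in the cytoplasm, 31.8 and 6.6 in starved and 23.9 and 24.9 in serum-treated undertranslated RNA, and 25.6 and 38.6 in starved and 89.4 and 40.0 in serum-treated polyribosome RNA. The value of 6.6 lay below that array's background of 7.7, and the SD of the scaled levels in that group was 2.14 (n = 2).

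**Figure D2:**
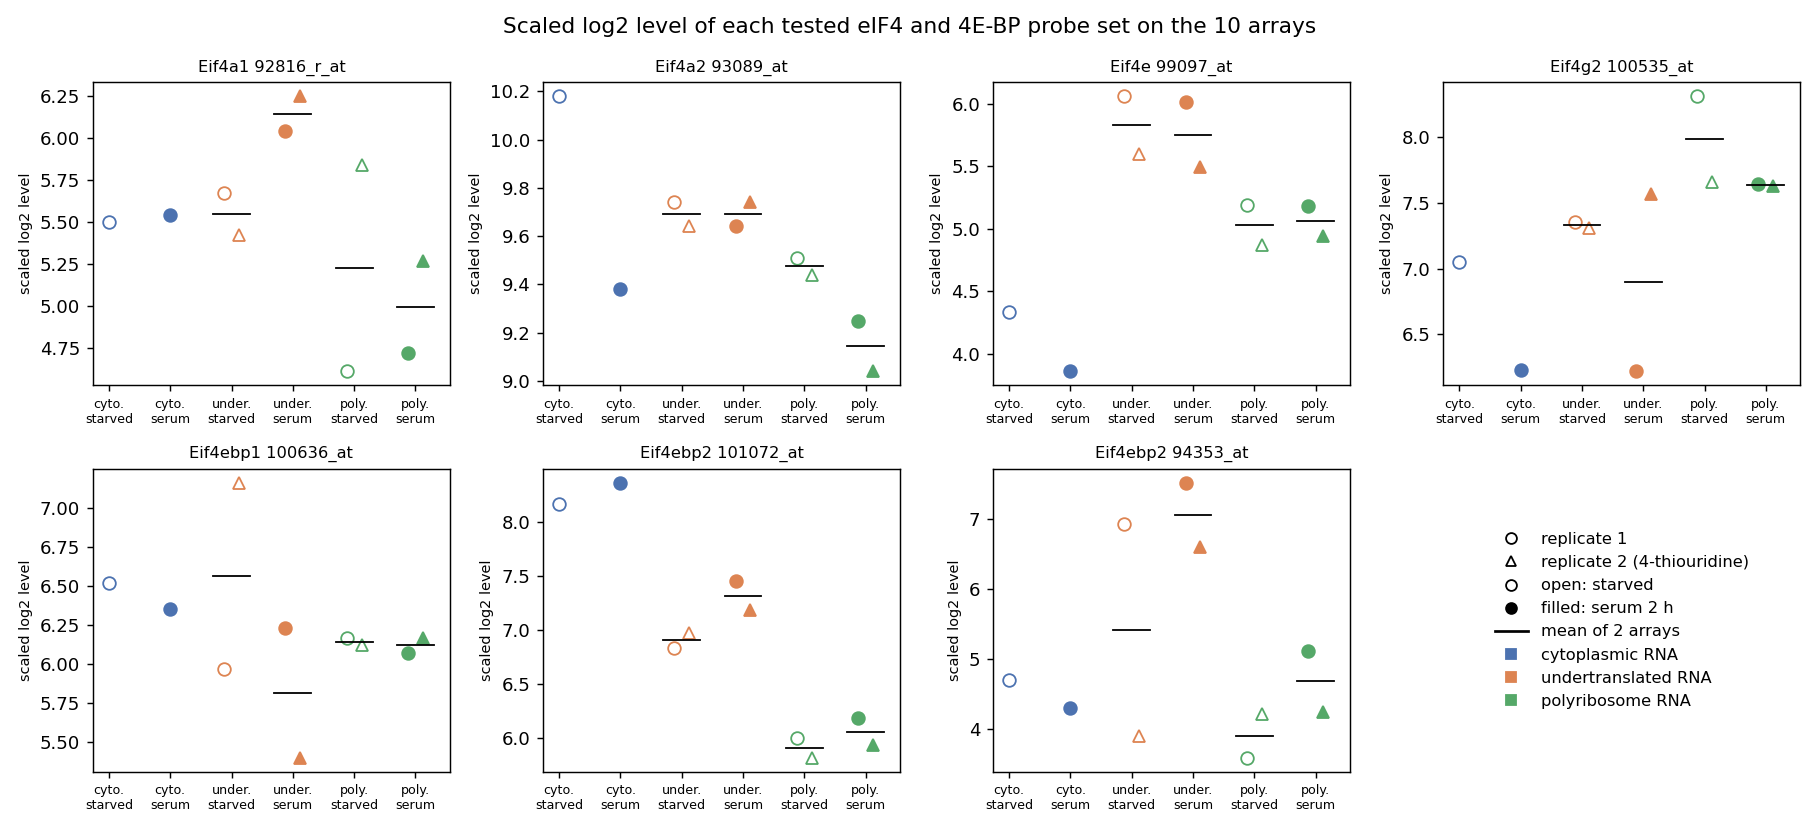
Scaled log2 level (vertical axes, each with its own range) of the 7 tested probe sets on the 10 arrays by RNA pool and serum state; bars are means of 2 arrays, circles replicate 1, triangles replicate 2, and filled markers serum-treated. Eif4ebp2 101072_at steps down from cytoplasm (8.16 and 8.36) to polyribosomes (5.81 to 6.18), Eif4e 99097_at is lowest in the cytoplasm (3.86 and 4.33), and Eif4g2 100535_at is highest in polyribosomes (7.63 to 8.31).

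The comparison of polyribosome with cytoplasmic RNA asks which messages take a larger or smaller place among polyribosomal mRNA than in the cytoplasm as a whole. Of the 7 tested probe sets 2 were higher, 1 was lower and 4 did not pass, where 26.5% of all 9316 probe sets passed (1350 higher and 1115 lower). Eif4e 99097_at was higher in polyribosomes by a log2 difference of 0.95 ± 0.22 (SE, limma adjusted p = 0.0128), with all 4 polyribosome arrays above both cytoplasmic arrays, of which 1 was above background. Eif4g2 was higher by 1.17 ± 0.23 (limma adjusted p = 0.00657), again without overlap. Eif4ebp2 101072_at was lower by -2.28 ± 0.19 (limma adjusted p = 0.000306), a difference with 0.44% of tested probe sets at or below it.

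These 3 directions were the same under all 4 scalings of the arrays that were computed, at 0.81 to 2.40 for Eif4e, 1.14 to 2.82 for Eif4g2 and -2.61 to -1.02 for Eif4ebp2 101072_at. The Eif4e call was lost when arrays were scaled on their hybridization controls (0.81, limma adjusted p = 0.0981). Without the serum-treated cytoplasmic array, which leaves 1 cytoplasmic array and 3.78% of all probe sets called, both higher calls were lost, Eif4e at 0.70 (limma adjusted p = 0.193) and Eif4g2 at 0.94 (limma adjusted p = 0.15), and the count of called members went from 3 to 1. Eif4ebp2 101072_at passed without each of the 6 arrays, at -2.33 to -2.23.

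The other 4 probe sets gave smaller differences that missed the threshold. Eif4a2 was at -0.47 ± 0.19 (limma adjusted p = 0.0962), Eif4a1 at -0.41 ± 0.33, Eif4ebp1 at -0.30 ± 0.18 and Eif4ebp2 94353_at at -0.21 ± 0.36. The last has a 95% interval of -1.01 to 0.59, which lies wholly above the interval of the other Eif4ebp2 probe set, -2.70 to -1.86, so that the 2 probe sets of this gene disagree. Eif4a1, Eif4a2, Eif4ebp1 and 94353_at turn to 0.83, 1.17, 1.09 and 0.98 on the values as deposited, where the median probe set stands at 1.30 and 76.1% of all probe sets passed. Of the 4 scalings, 3 (as deposited, median centring and hybridization controls) move all probe sets of an array alike and so give the same place relative to the median probe set by construction. Both by quantile normalization and by such a shift these 4 lay below the median. Across the 7 the median difference was -0.30, against 0 over all probe sets tested.

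**Figure D3:**
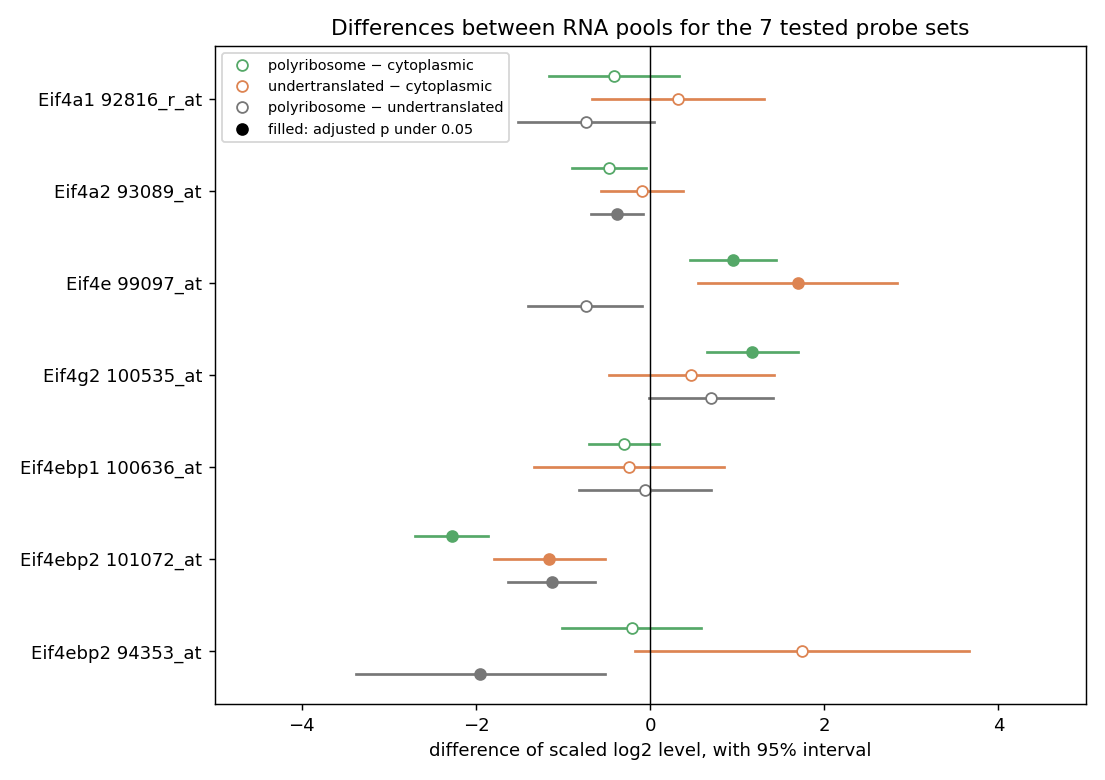
Difference of scaled log2 level between RNA pools (horizontal axis, points with 95% intervals from limma) for the 7 tested probe sets; filled points passed at an adjusted p of 0.05. Eif4ebp2 101072_at lies left of 0 in all 3 comparisons and passed in each, while Eif4e 99097_at and Eif4g2 100535_at lie right of 0 for polyribosome minus cytoplasmic RNA at 0.95 and 1.17.

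Polyribosome RNA was next set against undertranslated RNA, the heavy and light fractions of sucrose gradients, averaged over the serum states. Of the 7 probe sets 3 were lower in polyribosomes and 0 higher after quantile normalization, where 54.1% of all probe sets passed (2685 higher and 2359 lower), so that the share of members is no larger than that of all probe sets. At an unadjusted p under 0.05 there were 4 members, and 60.1% of all probe sets. The 3 were Eif4ebp2 101072_at at -1.13 ± 0.22 (limma adjusted p = 0.00304), Eif4ebp2 94353_at at -1.95 ± 0.63 (limma adjusted p = 0.0283) and Eif4a2 at -0.38 ± 0.13 (limma adjusted p = 0.038). The first and the last were lower on all 4 polyribosome arrays than on every undertranslated array; 94353_at overlapped. Eif4e, at -0.74 ± 0.29 (limma adjusted p = 0.0558), and Eif4g2, at 0.70 ± 0.31 (limma adjusted p = 0.087), missed the threshold although neither overlapped. Eif4a1 was at -0.74 ± 0.34 (limma adjusted p = 0.101), and Eif4ebp1 at -0.06 ± 0.33 with a 95% interval of -0.82 to 0.70. The median of the 7 was -0.74, against 0.05 over all probe sets tested.

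These signs depend on how bright and dim arrays are put on 1 scale. On the values as deposited all 7 were higher in polyribosomes and passed, by 1.13 for 94353_at to 4.68 for Eif4g2, where the median probe set stood at 3.00 and 90.9% of all probe sets passed. Scaling on hybridization controls likewise gave 7 higher and 0 lower, where 94.4% of all probe sets passed. After median centring 3 were higher, Eif4a2 at 1.15 (limma adjusted p = 0.00219), Eif4ebp1 at 0.94 (limma adjusted p = 0.0104) and Eif4g2 at 2.23 (limma adjusted p = 7.9e-05), and 1 was lower, 94353_at at -1.33 (limma adjusted p = 0.024), with the median probe set at 0.54 and 69.3% of all probe sets called. Relative to the median probe set there are only 2 values to compare, that after quantile normalization and that of the other 3 scalings, which is the same by construction. Eif4g2 lay above the median in both, at 0.65 and 1.68. Eif4a1 lay below it at -0.79 and -0.60, Eif4e at -0.80 and -0.63, Eif4ebp2 101072_at at -1.18 and -0.41 and 94353_at at -2.0 and -1.88. The other 2 changed sides, Eif4a2 from -0.43 to 0.61 and Eif4ebp1 from -0.11 to 0.40.

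**Figure D4:**
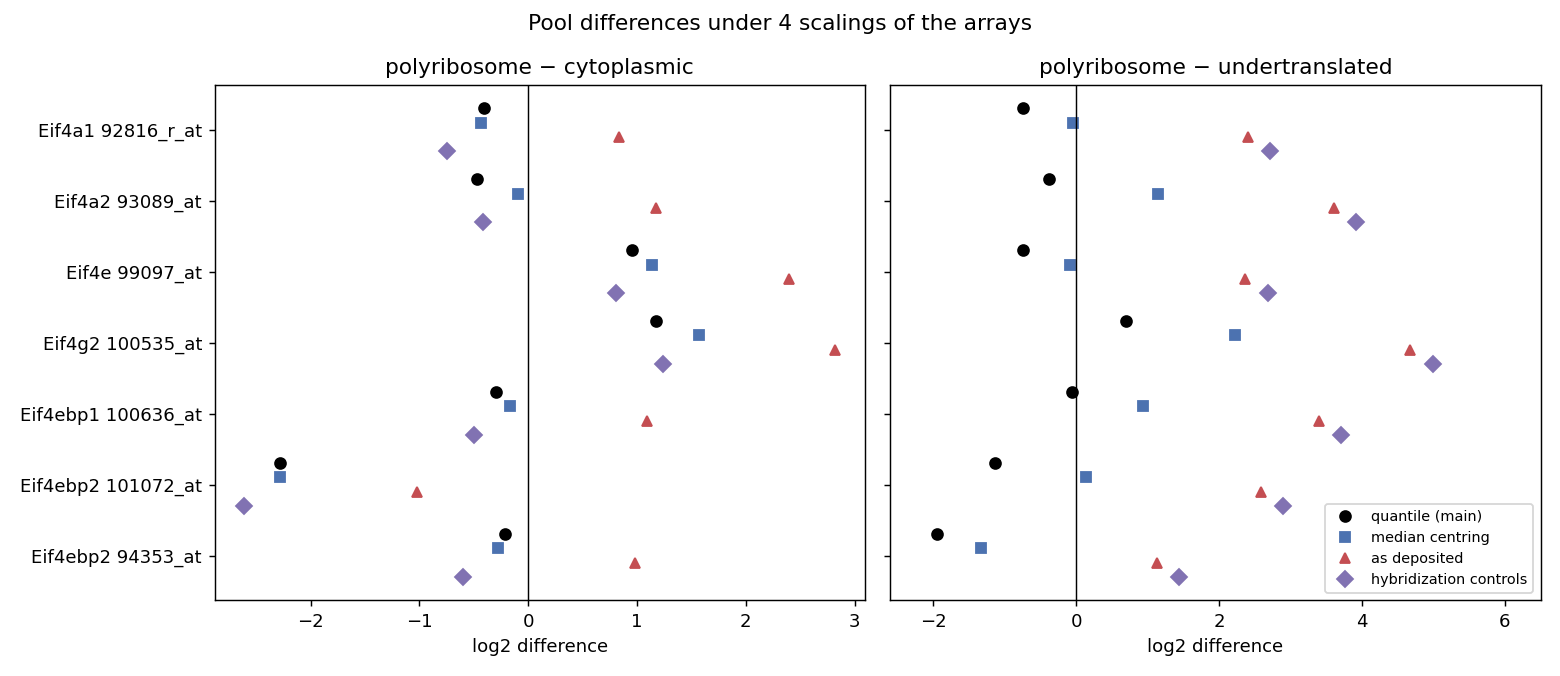
Log2 difference (horizontal axes) of the 7 tested probe sets under 4 scalings of the arrays, for polyribosome minus cytoplasmic RNA on the left and polyribosome minus undertranslated RNA on the right. On the left Eif4e, Eif4g2 and Eif4ebp2 101072_at keep their side of 0 under all 4 scalings; on the right Eif4g2 alone does, from 0.70 to 5.0.

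Single arrays moved these calls too. Eif4ebp2 101072_at passed without each of the 8 gradient arrays. Eif4a2 passed without serum-treated undertranslated replicate 1 or 2, and missed without each of the other 6 arrays, at -0.43 to -0.33 with limma adjusted p from 0.0514 to 0.113. Eif4ebp2 94353_at missed without starved undertranslated replicate 1 (-1.19, limma adjusted p = 0.0502), serum-treated undertranslated replicate 1 (-1.72, 0.0659), starved polyribosome replicates 1 (-1.79, 0.0903) and 2 (-2.11, 0.0575) and serum-treated polyribosome replicate 2 (-1.73, 0.096). Without serum-treated undertranslated replicate 2, where 64.5% of all probe sets passed, Eif4e passed at -0.87 (limma adjusted p = 0.0148) and Eif4g2 at 1.04 (limma adjusted p = 0.00312). Without the variance trend of the fit Eif4a2 missed, at -0.38 (limma adjusted p = 0.176), and Eif4e passed, at -0.74 (limma adjusted p = 0.0462).

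Taken within each serum state, 1 member was lower in polyribosomes of starved cells, Eif4ebp2 101072_at at -1.0 ± 0.31 (limma adjusted p = 0.0431), where 28.4% of all probe sets passed (1386 higher and 1262 lower). In serum-treated cells 2 were lower, where 44% of all probe sets passed (2202 higher and 1894 lower): 101072_at again, at -1.26 ± 0.31 (limma adjusted p = 0.0127), and Eif4a2 at -0.55 ± 0.19 (limma adjusted p = 0.0437). In starved cells the 101072_at call was lost without starved undertranslated replicate 1 or 2, starved polyribosome replicate 1 or 2, or serum-treated polyribosome replicate 1 or 2, with limma adjusted p between 0.083 and 0.218. In serum-treated cells it was lost without either serum-treated polyribosome array (limma adjusted p = 0.0564 and 0.1), and that of Eif4a2 without any 1 of the 8 arrays (0.0535 to 0.199). After median centring the counts were 1 higher and 0 lower in starved and 3 higher and 0 lower in serum-treated cells, where 49.4% and 58.8% of all probe sets passed. Under scaling by hybridization controls they were 7 higher and 0 lower in both, where 91.9% and 86.5% of all probe sets passed.

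The difference between the states was tested directly, as the shift of the polyribosome minus undertranslated difference with serum. None of the 7 probe sets passed this limma test, and 0% of all probe sets did, with 0 members and 7.75% of all probe sets at an unadjusted p under 0.05. The shifts ran from -0.86 ± 1.3 for Eif4ebp2 94353_at to 0.72 ± 0.67 for Eif4ebp1. Eif4ebp2 101072_at shifted by -0.26 with a 95% interval of -1.26 to 0.74, and Eif4e by 0.11 with an interval of -1.20 to 1.43. With intervals this wide, shifts of about 1 log2 unit were not detectable for most of these genes.

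Undertranslated RNA was also set against cytoplasmic RNA, where 30.2% of all probe sets passed (1332 higher and 1484 lower) and 2 of the 7 members did. Eif4e was higher in undertranslated RNA at 1.70 ± 0.51 (limma adjusted p = 0.0335), and turned to 0.03 on the values as deposited and -1.87 under scaling by hybridization controls, where the median probe set stood at -3.43. Its signal was near the floor, with 1 of 2 cytoplasmic arrays above background and undertranslated readings at 1.46 to 2.87 times background. Eif4ebp2 101072_at was lower at -1.16 ± 0.28 (limma adjusted p = 0.0145), and was lower under all 4 scalings, down to -5.51. Relative to the median probe set Eif4e lay at 1.65 after quantile normalization and at 1.56 under the other 3 scalings, which give 1 value by construction, and 101072_at at -1.20 and -2.08.

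Both calls were lost in fits with a single cytoplasmic array, without the starved one (Eif4e 1.89, limma adjusted p = 0.153, and 101072_at -1.05, 0.159) or without the serum-treated one (1.50, 0.312, and -1.26, 0.16), where 11.5% and 5% of all probe sets passed. Both were also lost without starved undertranslated replicate 1 (1.62, 0.105, and -1.11, 0.0613), and that of Eif4e without starved undertranslated replicate 2 (1.82, 0.0617). The 3 pool comparisons share arrays and are not independent of each other. For Eif4ebp2 101072_at they gave -2.28, -1.13 and -1.16 for polyribosome minus cytoplasmic, polyribosome minus undertranslated and undertranslated minus cytoplasmic RNA. For Eif4e they gave 0.95, -0.74 and 1.70, and for Eif4g2 1.17, 0.70 and 0.47. On this scale 101072_at was lower, and Eif4e higher, in both gradient pools than in the cytoplasm. How far their polyribosome minus cytoplasmic differences reflect ribosome loading was not tested, and cycloheximide cannot be told apart from the pool.

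The question of the series was the response to serum after 2 h. Over the 6 polyribosome and cytoplasmic arrays 0 of the 7 members passed the limma test, where 0.891% of all probe sets passed. At an unadjusted p under 0.05 there were 2, and 11.8% of all probe sets. Eif4a2 was at -0.48 ± 0.18 (limma adjusted p = 0.34), with serum-treated below starved in the cytoplasm (-0.79) and in both polyribosome pairs (-0.26 and -0.39). Eif4g2 was at -0.51 ± 0.22 (limma adjusted p = 0.414), with differences of -0.82 in the cytoplasm and -0.67 and -0.03 in the polyribosome pairs. Neither passed when any 1 array was left out or under any alternative that was run.

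The cap-binding protein's message was at -0.14 ± 0.21 after serum, with a 95% interval of -0.61 to 0.33. Eif4ebp1 was at -0.07 ± 0.17 (interval -0.45 to 0.31) and Eif4ebp2 101072_at at 0.17 ± 0.18 (-0.23 to 0.56), while Eif4a1 was at -0.14 ± 0.31 (-0.84 to 0.56) and Eif4ebp2 94353_at at 0.39 ± 0.33 (-0.37 to 1.14). Each of these intervals except that of 94353_at lies within 1 log2 unit of 0, on the quantile scale. The median of the 7 was -0.14, against -0.01 over all probe sets tested. In the cytoplasmic pair alone, with 1 array in each state and no test, the differences ran from -0.82 for Eif4g2 to 0.20 for 101072_at.

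Markers of another cell type moved in the same contrast. Of 12 macrophage markers 11 were measured and 8 tested. Of these 5 rose with serum, where 0.891% of all probe sets passed, with a median of 1.26. Their summed scaled intensity was 324 in starved and 719 in serum-treated cytoplasm, and 409 to 422.5 in starved and 1060 to 1402 in serum-treated polyribosome RNA. Of the defining markers Ctss was higher by 1.74 ± 0.17 (limma adjusted p = 0.00529), Lyz2 by 1.67 ± 0.26 and Tyrobp by 1.43 ± 0.25, each above background on all 6 arrays. On these arrays 7 to 9 of the 11 were above background. Of 6 tested endothelial markers 1 rose, Flt1 (at least 2.63-fold, from 0 of 3 starved arrays above background), with a median of 0.29, and of 5 tested epithelial markers 0 passed, with a median of 0.44. The part of such cells in the serum values of the members was not tested. The summed fibroblast markers were 13190 and 11530 in starved and serum-treated cytoplasm and 9165 to 10750 and 11680 to 12430 in the polyribosome groups.

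In undertranslated RNA 0 members passed for serum, where 1.07% of all probe sets passed, and 0 had an unadjusted p under 0.05, against 18.8% of all probe sets. The largest differences were 1.65 ± 0.89 for Eif4ebp2 94353_at, -0.75 ± 0.47 for Eif4ebp1 and 0.60 ± 0.49 for Eif4a1. Starved replicate 2 was the lowest of the 4 arrays for 94353_at, at 3.90, and the highest for Eif4ebp1, at 7.16. Without serum-treated undertranslated replicate 2 Eif4g2 passed at -1.11 (limma adjusted p = 0.0396), against -0.44 with it. That fit has 1 serum-treated undertranslated array, assumed to vary like the other groups, and called 24.7% of all probe sets.

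**Figure D5:**
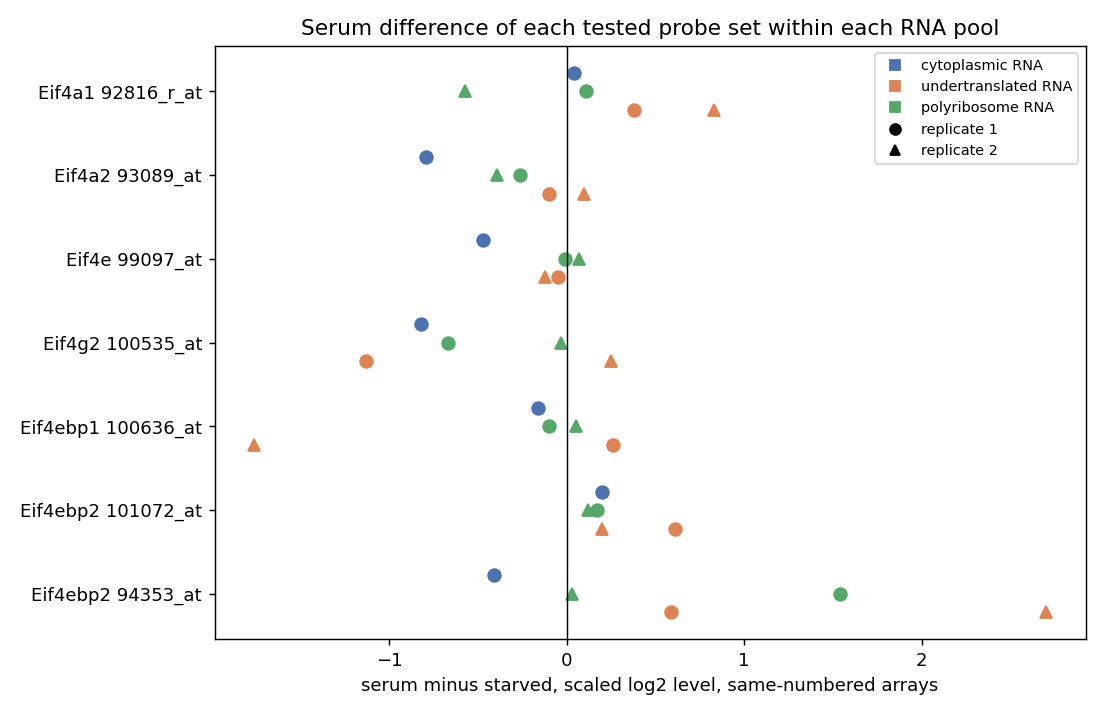
Serum-treated minus starved difference of scaled log2 level (horizontal axis) between same-numbered arrays of each RNA pool for the 7 tested probe sets, circles for replicate 1 and triangles for replicate 2. The polyribosome and cytoplasmic points of Eif4a2 are all left of 0 (-0.79 to -0.26), those of Eif4ebp2 101072_at are all right of 0 (0.12 to 0.20), and the undertranslated points spread from -1.76 to 2.70.

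Replicate 2 and replicate 1 of the gradient groups differ in 4-thiouridine and 3H-cytidine labelling, which cannot be told apart from the replicate. None of the 7 passed this limma comparison, and 0% of all probe sets did, with 0 members and 6.41% of all probe sets at an unadjusted p under 0.05. The differences ran from -1.04 ± 0.54 for Eif4ebp2 94353_at to 0.43 ± 0.32 for Eif4a1.

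Other proteins that act on eIF4F were read from a list of 18 genes, of which 13 were measured and 11 tested. In polyribosome against undertranslated RNA 6 were higher and 2 lower, where 54.1% of all probe sets passed, with a median of 0.82, or 0.59 with genes dim on 1 side set at their bound, against 0.05 over all probe sets. Pabpc1, the poly(A)-binding protein that contacts eIF4G, was higher by 1.21 ± 0.18 (limma adjusted p = 0.000786). Ddx3x, an RNA helicase, and Mknk2, a kinase of eIF4E, were above background on no undertranslated array and were at least 3.13-fold and at least 1.51-fold higher on the quantile scale. The scaffold Eif4g3 was at 0.82 and the helicase cofactor Eif4b at 0.87, and both passed (limma adjusted p = 0.0351 and 0.0229), as did Larp1, a binder of oligopyrimidine-tract messages, at 0.92 (0.0095).

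The 2 lower genes were inhibitors, Paip2, which binds the poly(A)-binding protein, at -2.15 ± 0.21 (limma adjusted p = 0.00012) and Pdcd4, which binds eIF4A, at -0.96 ± 0.24 (limma adjusted p = 0.0104). Both calls depended on the scaling. After median centring Paip2 missed the threshold at -0.63 (limma adjusted p = 0.0806) and Pdcd4 turned to 0.19 (limma adjusted p = 0.485), and on the values as deposited they were at 1.82 and 2.65. After median centring 7 of the list were higher and 1 lower, which was Mknk1, another kinase of eIF4E, at -0.90 (limma adjusted p = 0.0357), and as deposited 11 were higher and 0 lower. Of all probe sets 69.3% and 90.9% passed under these scalings, in that order. With serum, over polyribosome and cytoplasmic arrays, 0 of the 11 passed limma's test, where 0.891% of all probe sets passed, with a median of 0.03. Against cytoplasmic RNA 2 of the 11 were higher in polyribosomes and 0 lower, where 26.5% of all probe sets passed. The 2 were Ddx3x at 1.65 ± 0.23 (limma adjusted p = 0.00157) and Pabpc1 at 0.96 ± 0.23 (limma adjusted p = 0.0151).

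Of the mTOR pathway 13 of 20 genes were tested, and 5 were higher and 2 lower in polyribosome than in undertranslated RNA, a share near the 54.1% of all probe sets that passed, with a median of 0.91. After median centring 9 were higher and 1 lower, Rps6kb2, an S6 kinase, at -0.95 (limma adjusted p = 0.0482), and on the values as deposited 13 and 0. Of all probe sets 69.3% and 90.9% passed under these scalings, in that order. Akt1, a kinase upstream of mTOR complex 1, was at least 3.84-fold higher, Rraga, a GTPase that brings the complex to the lysosome, was at 4.91 ± 0.74, and Akt1s1, an inhibitor of the complex, at 2.05 ± 0.45; Rraga and Akt1s1 were above background on 1 of 4 undertranslated arrays. Mlst8, a subunit of the complex, was at -1.74 ± 0.41 and Tsc2, its upstream inhibitor, at -1.06 ± 0.23; these 2 turned to 1.89 and 2.68 on the values as deposited. After median centring neither passed, Mlst8 at -0.57 (limma adjusted p = 0.0986) and Tsc2 at 0.22 (0.414). With serum, over the same 6 arrays as before, 0 of the 13 passed, where 0.891% of all probe sets passed, with a median of -0.23. Under scaling by hybridization controls 1 was lower, where 0.676% of all probe sets passed.

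Among 27 other initiation factors 13 were higher and 7 lower in polyribosome than in undertranslated RNA, against 54.1% of all probe sets that passed, with a median of 0.52, or 0.46 with bounds. After median centring 17 were higher and 4 lower, where 69.3% of all probe sets passed. On the values as deposited the counts were 25 and 0, where 90.9% passed. Eif2b1, a subunit of the exchange factor for eIF2, was at 2.86 ± 0.31, Eif2b5, another, was at least 1.62-fold higher, and Eif3d, a subunit of eIF3, was at 3.56 ± 0.54 with 1 of 4 undertranslated arrays above background. Eif1ax, which acts in scanning, was lowest at -3.10 ± 0.16, followed by Eif3f at -2.13 ± 0.34 and Eif1b at -1.79 ± 0.14, all of which turned positive on the values as deposited (0.69, 0.47 and 2.10). After median centring Eif1ax and Eif3f stayed lower, at -1.77 and -1.99, and Eif1b did not pass, at -0.35 (limma adjusted p = 0.23).

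Of 5 elongation factors tested 3 were higher and 2 lower, where 54.1% of all probe sets passed. Their median of 0.49 turned to -0.91 after median centring, where 2 were higher and 3 lower and 69.3% of all probe sets passed. On the values as deposited 5 were higher, where 90.9% of all probe sets passed. Their median there was 1.55, against 3 over all probe sets. Eef2, the translocase, was at 1.85 ± 0.33 and Eef1d at least 6.31-fold higher. Eef1a1, which delivers aminoacyl-tRNA, was at 0.49 ± 0.078 and turned to -1.03 after median centring. Eef1b2 was at -1.95 ± 0.35 and Tpt1 at -0.36 ± 0.098, and they turned to 1.49 and 1.55 on the values as deposited. After median centring both stayed lower, at -0.97 and -0.91 (limma adjusted p = 0.00764 and 0.0138). With serum, over polyribosome and cytoplasmic arrays, 0 of these 5 factors and 0 of the 27 initiation factors passed, with medians of 0.17 and 0.02. Of all probe sets 0.891% passed there, so these counts are near the background share.

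The genes whose scaled levels followed each member most closely over the 10 arrays are given as a description; the arrays of a pool share a level, so these correlations mainly follow the order of the pools. Eif4ebp2 101072_at ran closest to Cfl1 (Pearson r = 0.978), which encodes cofilin, to Tgfb1i1 (0.978) and to Tmsb10 (0.974). Eif4e ran closest to Tra2b (0.977), Acbd6 (0.976) and Cycs (0.972), and Eif4g2 to Tmem30a (0.964), Rab2a (0.963) and Meox2 (0.961). Eif4ebp1 ran with Spef1 (0.936), Blm (0.891) and Chchd10 (0.889), Eif4a1 with Pdpn (0.913), Ntn1 (0.91) and Adra1b (0.877), and Eif4a2 with Tmem50b (0.874), Coq9 (0.834) and Rnf14 (0.824).

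The members did not share 1 pattern. Over the 10 arrays Eif4g2 and Eif4ebp2 101072_at ran in opposite directions (Pearson r = -0.793), Eif4a1 and Eif4a2 gave 0.388, Eif4e and Eif4ebp1 -0.16, and the 2 tested probe sets of Eif4ebp2 0.26.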

How the data were processed

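Each of the 10 Affymetrix mouse arrays has 1 deposited intensity per probe set, in linear units; how the authors summarised probes and scaled arrays is not given in the sources used here. Per the labels' protocols, RNA was amplified linearly and labelled with biotin. The number of arrays limits the precision. A pseudocount of 1.5, the 10th percentile of all intensities, was added before log2, and the arrays, whose medians spanned 2.95 log2 units, were quantile normalized together. This puts dim undertranslated and bright polyribosome arrays on the same distribution, and the pseudocount shrinks differences of dim probe sets. Only probe sets over the 25th percentile of mean level were tested. limma 3.58.1 in R 4.3.3 (lmFit, eBayes with trend) gave two-sided tests with Benjamini-Hochberg adjustment over 9316 probe sets. The fits were also run on simulated data with noise drawn independently for each array. Effects shared by replicate, labelling or array brightness were not simulated.

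Folds written "at least" have 1 side with no array above background; there the dim side enters, on each array, at its own level or at the lowest level that exceeds background, whichever is higher. The members, gene lists and rules were chosen with earlier results of these data known. All members are named, with up to 3 of the most changed called genes in each direction of every list (for the averaged fraction difference and for serum), and the 3 genes most correlated with each member; of several probe sets the brightest on average stands for a list gene. Eif4g3, Eif4b, Larp1, Mknk1, Rps6kb2, the cell type markers and the genes named against cytoplasmic RNA were picked after their values were seen. Alternatives were no scaling, centring on medians, scaling on 9 hybridization controls, pseudocounts of 1 and 4, other filters (none, 50th percentile), no trend, the replicate block, and leaving out each array. The level of Atf1 was not analysed here.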

Additional observations from a re-analysis of the deposited data

Results flagged for a closer look

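The Eif4ebp2 probe set 94353_at had a cytoplasmic serum difference of -0.41, lower after serum, while both serum-treated polyribosome arrays lay above both starved ones, by 1.54 and 0.03 in same-numbered pairs. It stood out because the direction was opposite in these 2 pools. The cytoplasm has 1 array in each state and the difference between the pools was not tested. Some readings were near the floor, at 1.28 times background in serum-treated cytoplasm and 1.59 times in starved polyribosome replicate 1. In serum-treated polyribosome replicate 1 the reading was 6.08 times background.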

How the results depend on the processing

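The number of arrays, and signal near background on the undertranslated arrays, limit these results. The scaling of the arrays moved most counts. On the values as deposited the number of the 7 members called was 7 for polyribosome minus undertranslated RNA averaged, 6 in starved and 6 in serum-treated cells, 6 for polyribosome minus cytoplasmic and 5 for undertranslated minus cytoplasmic RNA. Of all probe sets 90.9%, 85%, 84.9%, 76.1% and 58.5% passed in these fits, in that order. With hybridization control scaling the member count was 7, 7 and 7 for the first 3 and 7 for undertranslated minus cytoplasmic RNA, where median centring gave 4. Of all probe sets 94.4%, 91.9%, 86.5% and 96.2% passed with hybridization control scaling, and 45.8% with median centring. Without the variance trend the member count was 0 in starved cells, 1 in serum-treated cells and 1 for undertranslated minus cytoplasmic RNA. Of all probe sets 26.1%, 41.7% and 24.1% passed there. Averaged over states, where 52.4% passed, the count stayed 3, with Eif4a2 lost (-0.38, limma adjusted p = 0.176) and Eif4e gained (-0.74, 0.0462). Without the filter 1 member was called in serum-treated cells, where 32.8% of all probe sets passed. In the cytoplasmic pair the median member difference was -0.66 with hybridization control scaling. Pseudocounts of 1 and 4 and the stricter filter left every count within 1.5 times.

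The following signs turned with the scaling, given as deposited, then with median centring where it turned too, then with hybridization control scaling. For polyribosome minus undertranslated RNA averaged, Eif4a2 gave 3.61, 1.15 and 3.92, Eif4ebp1 gave 3.40, 0.94 and 3.71, and Eif4ebp2 101072_at gave 2.59, 0.14 and 2.90. Without a turn under median centring, Eif4a1 gave 2.40 and 2.71, Eif4e 2.37 and 2.68, and 94353_at 1.13 and 1.44. In starved cells Eif4a1 gave 2.62, 0.22 and 3.12, Eif4a2 3.24, 0.85 and 3.74, Eif4ebp1 2.99, 0.60 and 3.49, and 101072_at 2.43, 0.04 and 2.94. There Eif4e gave 2.20 and 2.70 and 94353_at 1.01 and 1.51. In serum-treated cells Eif4a2 gave 3.97, 1.45 and 4.09, Eif4e 2.55, 0.03 and 2.67, and 101072_at 2.76, 0.24 and 2.87. There Eif4a1 gave 2.19 and 2.31 and 94353_at 1.25 and 1.36. For the shift with serum Eif4a2 gave 0.73, 0.61 and 0.35. As deposited and with median centring 101072_at gave 0.33 and 0.20 and 94353_at 0.24 and 0.11, and with hybridization control scaling Eif4e gave -0.04 and Eif4g2 -0.04. For undertranslated minus cytoplasmic RNA Eif4a1 gave -1.57, -0.37 and -3.47, Eif4g2 -1.86, -0.66 and -3.76, and 94353_at -0.14 and -2.04. There Eif4e gave -1.87 with hybridization control scaling only. For polyribosome minus cytoplasmic RNA, as deposited only, Eif4a1 gave 0.83, Eif4a2 1.17, Eif4ebp1 1.09 and 94353_at 0.98. For serum 101072_at gave -0.29, -0.06 and -0.24 in undertranslated RNA and -0.25 over polyribosome and cytoplasmic arrays with hybridization control scaling. For replicate 2 minus 1 Eif4a2 gave 0.22, 0.15 and 0.18. The cause was not tested beyond the shift of the median probe set.

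Leaving out 1 array at a time gave 1 to 5 called members for polyribosome minus undertranslated RNA averaged, 0 to 1 in starved and 0 to 2 in serum-treated cells. It gave 1 to 3 for polyribosome minus cytoplasmic RNA, 0 to 2 for undertranslated minus cytoplasmic RNA and 0 to 1 for serum in undertranslated RNA. The share of all probe sets that passed moved with the left-out array too, so these counts are not read as results about the members. Signs that turned ranged, for polyribosome minus undertranslated RNA, from -0.36 to 0.24 averaged, -1.02 to 0.17 starved and -0.11 to 0.72 in serum for Eif4ebp1, and from -0.93 to 0.29 starved for Eif4a1. For the shift with serum they ranged from -0.15 to 0.38 for Eif4e, -0.59 to 0.77 for Eif4g2 and -2.37 to 0.65 for 94353_at. For serum over polyribosome and cytoplasmic arrays they ranged from -0.28 to 0.03 for Eif4e and -0.46 to 0.23 for Eif4a1, and in undertranslated RNA from -0.35 to 0.18 for Eif4e and -1.11 to 0.24 for Eif4g2. For polyribosome minus cytoplasmic RNA 94353_at ranged from -0.80 to 0.39, and for undertranslated minus cytoplasmic RNA Eif4a2 from -0.49 to 0.31 and Eif4ebp1 from -0.54 to 0.05. For replicate 2 minus 1 Eif4ebp1 ranged from -0.26 to 0.41 and Eif4g2 from -0.23 to 0.43.

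After subtracting group means, arrays with the same number correlated at 0.0167 to 0.275 across groups, and not every pair exceeded 0.1, so the number was not taken to pair them. With it as a replicate block 4 members were called for polyribosome minus undertranslated RNA averaged, 1 in starved and 3 in serum-treated cells, 4 for polyribosome minus cytoplasmic and 3 for undertranslated minus cytoplasmic RNA, and 0 for the shift and for both serum comparisons. Of all probe sets 54.5%, 29.2% and 44.4% passed for polyribosome minus undertranslated RNA, averaged, starved and serum-treated. Against cytoplasmic RNA 26.7% and 29.6% passed for polyribosome and undertranslated RNA. The calls the block added were Eif4e at -0.74 (limma adjusted p = 0.0453), Eif4ebp2 94353_at at -2.38 (0.0391), Eif4a1 at -0.86 (0.0301) and 94353_at at 2.72 (0.0257), in that order of comparisons. No such fit exists for replicate 2 minus 1.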
